A study of Mus musculus with 16 samples.

Results

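The transmembrane mucins were read here as 5 named genes, Muc1, Muc3, Muc4, Muc13 and Muc20, taken by symbol from the count table. Of these, 4 had an entry among the 21442 genes, namely Muc1, Muc4, Muc13 and Muc20, and Muc3 is not analysed here. RNA was sequenced from 16 libraries of sorted distal colon epithelium of mice aged 6 to 8 weeks, with 4 libraries in each of 4 groups. Every mouse carried RedMUC298trTg, a reporter transgene that marks goblet cells with mCherry on a human MUC2 mucin. The goblet cell fraction (GC) held the mCherry-positive cells and the other epithelial fraction (EC) the mCherry-negative cells, so EC is a mixture of cell types. Mice with the reporter alone gave the groups WT_EC and WT_GC, and mice that were also Spdef-/- gave SpdefKO_EC and SpdefKO_GC. No label ties a library to a mouse, and the p-values below speak only of the library-to-library spread, part of which may be technical.

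Transmembrane mucins are long, heavily O-glycosylated proteins that are anchored in the apical membrane and form the glycocalyx, the sugar coat under the secreted mucus. Many are cleaved in an extracellular SEA domain into an outer part and a membrane part that stay together, and their short cytoplasmic tails can be phosphorylated and bind signalling and scaffold proteins. Spdef is a transcription factor of the ETS family that acts in the maturation of secretory cells, among them intestinal goblet cells.

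Libraries held between 10085637 and 17111987 gene counts, and all levels are counts scaled by TMM to a common library size (CPM, counts per 1000000). Summed over 10 goblet cell markers, GC libraries lay at 48280–65740 CPM and EC libraries at 544–779 CPM, and summed over 10 absorptive colonocyte markers GC libraries lay at 496–1118 CPM and EC libraries at 8998–11435 CPM. Of the goblet cell markers, 9 were called higher in GC than in EC in both genotypes. The remaining symbol on the list, Clca1, was called lower in WT_GC and was not called in the libraries labelled SpdefKO. Clca3 was among those called higher. Which gene the deposited counts mean by the symbol Clca1 was not checked, so its direction is not read as that of a goblet cell marker. The gene named in the genotype, Spdef, was at 279.8–315 CPM in WT_GC and at 294–446 CPM in the libraries labelled SpdefKO_GC, so its count was not lower there (log2 difference 0.33 ± 0.14 SE, edgeR quasi-likelihood test, adjusted p = 0.116; called higher in 3 of 23 alternatives, namely limma-voom, only the groups compared and without SpdefKO_GC 19). In the EC fraction its mean was 2.69 CPM in WT_EC and 2.15 CPM in the libraries labelled SpdefKO_EC. The labels do not name the deleted part of Spdef, and RNA of a disrupted allele may be counted, so its count does not check the labels. Genotype directions below rest on the labels.

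In wild-type tissue the members were split between the fractions. Muc13 was the most abundant in both and was lower in goblet cells, while Muc1 and Muc4 were higher in goblet cells, about 10-fold and 3-fold. In the libraries labelled SpdefKO_GC, Muc1 was 6-fold lower and Muc4 was 3-fold higher than in WT_GC, and Muc13 did not pass the test (log2 difference 0.02 ± 0.10 SE, 4 libraries against 4). No member passed it between genotypes in the EC fraction.

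**Figure D1:**
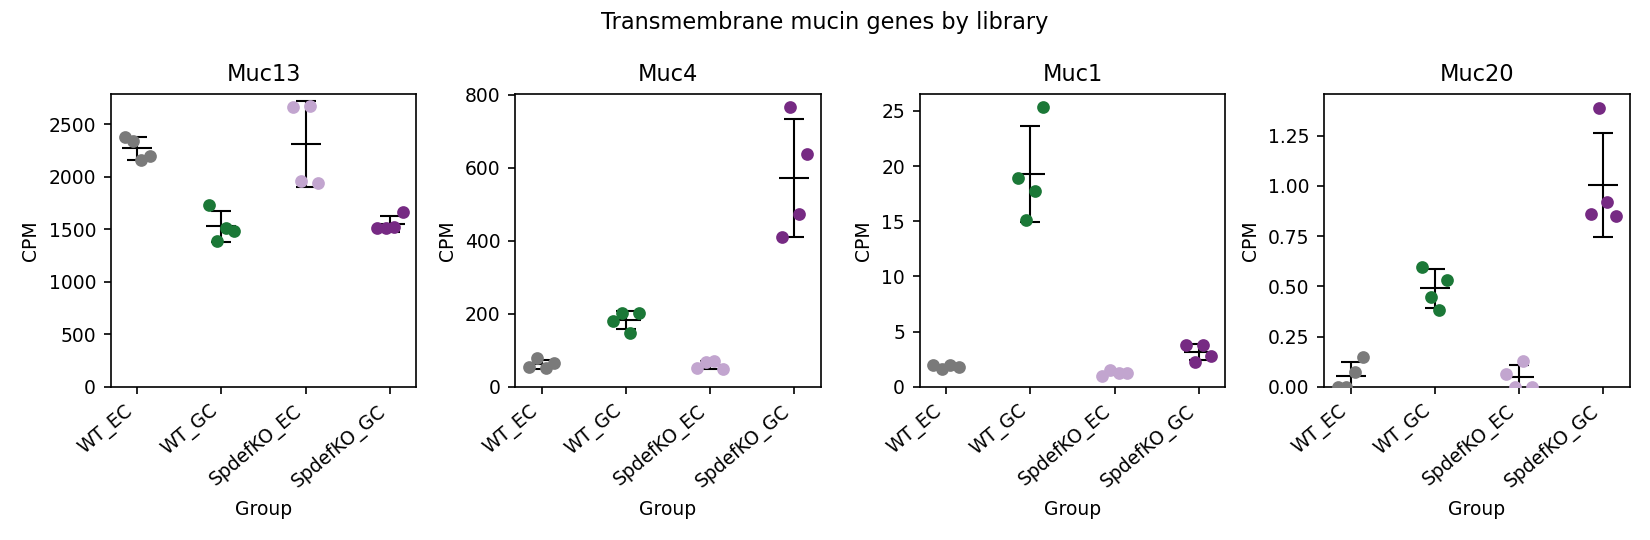
Level in CPM (vertical axis, from 0) of each transmembrane mucin gene in the 4 groups (horizontal axis); points are libraries and black bars the mean ± SD of 4. Muc1 stands highest in WT_GC (15.1–25.3 CPM), Muc4 in SpdefKO_GC (412–768 CPM), and Muc13 is lower in both GC groups than in both EC groups.

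All 4 genes were placed on the mouse build GRCm38, which is also called mm10, by GENCODE. Muc1 lies on chromosome 3 at 89229057–89233381, on the plus strand. The other members lie on chromosome 16, with Muc4 at 32735886–32782391 and Muc13 at 33794037–33819934 on the plus strand and Muc20 at 32777419–32797435 on the minus strand. Muc4 and Muc20 run towards each other and their gene bodies overlap over 4973 bases, of which 627 are exonic in both. No source used here states whether counting used strand, so reads in the shared stretch cannot be assigned with certainty. Muc13 overlaps a minus-strand antisense gene, Gm15657, over 184 exonic bases, and that gene has no entry of its own in the counts.

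Because Muc1, Muc4 and Muc13 differed in their response to genotype, the 120 bases before an annotated start of each are shown (for Muc13, the first of 2 starts), 5′ to 3′, from RefSeq (GRCm38.p6, plus strand). Capitals mark GGAA and GGAT, the core letters that ETS factors read, on either strand, so that TTCC and ATCC are also in capitals. The windows are chr3:89228936-89229055, chr16:32735766-32735885 and chr16:33793917-33794036.
Muc1: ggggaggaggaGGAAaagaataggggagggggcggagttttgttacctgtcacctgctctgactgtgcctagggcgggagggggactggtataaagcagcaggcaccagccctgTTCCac
Muc4: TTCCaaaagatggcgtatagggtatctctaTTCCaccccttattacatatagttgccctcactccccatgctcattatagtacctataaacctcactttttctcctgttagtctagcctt
Muc13: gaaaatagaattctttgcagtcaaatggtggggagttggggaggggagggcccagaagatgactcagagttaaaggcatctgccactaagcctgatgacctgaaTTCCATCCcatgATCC
Within 250 bases before the start, and on both strands, Muc1 had 4 matches to GGAA and 0 to GGAT, Muc4 had 3 and 2, and Muc13 had 3 and 2 at its first start and 1 and 3 at its second. The longer words CCGGAA and CCGGAT, which contain the shorter ones, had 0 matches in these windows. Among 32851 promoter windows of that length, 93.4% held GGAA, 74.1% GGAT, 12% CCGGAA and 4.94% CCGGAT, so the short words are in most promoters, and a match is a description of letters and not of binding.

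Muc13 is a small transmembrane mucin with a short mucin domain and epidermal growth factor-like domains, and it is a main mucin of the intestinal brush border. Its level in WT_EC was 2379, 2343, 2163 and 2195 CPM in libraries 10, 12, 14 and 17, and in WT_GC it was 1732, 1387, 1511 and 1485 CPM in libraries 9, 11, 13 and 18. All 4 goblet cell libraries lay below all 4 libraries of the other epithelium. The log2 difference was -0.57 ± 0.10 (edgeR quasi-likelihood test, Benjamini-Hochberg adjusted p = 8.89e-05), a level 1.48-fold lower in WT_GC. In the libraries labelled SpdefKO, Muc13 stood at 2663, 1964, 2675 and 1943 CPM in EC (libraries 4, 6, 8 and 20) and at 1510, 1517, 1518 and 1667 CPM in GC (libraries 3, 5, 7 and 19). Again no GC library reached the EC range, and the difference was the same size, -0.57 ± 0.10 (adjusted p = 9.21e-05). Within SpdefKO_EC, libraries 4 and 8 lay above libraries 6 and 20.

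Goblet cell libraries still held 67.3% of the EC level of Muc13 in wild type and 67.2% in the libraries labelled SpdefKO. By comparison, genes of absorptive cells stood much lower in the same sorted goblet cells. Car4, Slc9a3 and Aqp8, a carbonic anhydrase, a sodium exchanger and a water channel, were at 1.92%, 1.59% and 1.92% of their EC level in WT_GC and at 3.78%, 3.66% and 3.06% in SpdefKO_GC. These had the largest falls of the 9 absorptive markers tested, in both genotypes. The sum over all 10 was 496–645 CPM in WT_GC against 10133–11435 CPM in WT_EC. In the libraries labelled SpdefKO it was 890–1118 CPM in GC against 8998–11076 CPM in EC. Muc13 kept a larger part of its EC level in the goblet cell libraries than these markers did. The part of left-over EC cells in its counts there was not tested.

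Muc1 is the classical cell-surface mucin, with a tail that binds beta-catenin and receptor tyrosine kinases. It was at 1.96, 1.66, 1.96 and 1.83 CPM in WT_EC and at 18.9, 15.1, 17.7 and 25.3 CPM in WT_GC. The groups were far apart, and library 18 was the highest goblet cell library. The log2 difference was 3.36 ± 0.19 (edgeR quasi-likelihood test, adjusted p = 1.78e-11), a 10.3-fold higher level in goblet cells. In the libraries labelled SpdefKO the same fractions were at 1.02, 1.57, 1.30 and 1.25 CPM (EC) and at 3.79, 2.29, 3.81 and 2.77 CPM (GC). GC still lay above EC in every library, and the difference was 1.30 ± 0.23 (adjusted p = 7.22e-05), 2.46-fold. Muc1 in WT_EC was 9.62% of its WT_GC level, against 0.400% for Muc2 and 0.503% for Fcgbp, both abundant goblet cell secretory products. These had rises in the upper part of the 9 goblet cell markers called higher in WT_GC, while Clca1 was called lower. The sum over all 10 was 594–779 CPM in WT_EC and 48280–55182 CPM in WT_GC. The part of left-over goblet cells in the Muc1 counts of EC was not tested.

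Muc4 is a very large transmembrane mucin whose growth factor-like domains can engage the receptor ErbB2. Its level was 53.8, 79.3, 51.0 and 65.1 CPM in WT_EC and 181, 202, 148 and 203 CPM in WT_GC. No WT_EC library came near the lowest WT_GC library. The log2 difference was 1.56 ± 0.20 (edgeR quasi-likelihood test, adjusted p = 5.50e-06), 2.95-fold. In the libraries labelled SpdefKO it was at 51.1, 67.8, 71.8 and 49.0 CPM in EC and at 412, 768, 474 and 637 CPM in GC, a difference of 3.25 ± 0.21 (adjusted p = 1.89e-09), 9.53-fold. The SpdefKO_GC libraries were also the most spread out of the 4 groups, with libraries 5 and 19 above libraries 3 and 7.

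Muc20 is a small transmembrane mucin known to bind the receptor Met, and it was near the limit of these libraries. Its counts were 0, 0, 1 and 2 in WT_EC, 9, 8, 6 and 6 in WT_GC, 1, 0, 2 and 0 in SpdefKO_EC, and 15, 20, 13 and 12 in SpdefKO_GC. Every GC library held more than every EC library. Summed over the libraries and set against their totals, Muc20 was 9.52-fold higher in WT_GC than in WT_EC (95% exact interval 2.95–48.9, 29 against 3 counts). This interval covers counting error only. Between SpdefKO_GC and SpdefKO_EC the ratio was 20.4-fold (60 against 3 counts). Muc20 passed the filter on low counts through the 4 SpdefKO_GC libraries alone, which reached the needed 0.693 CPM where 0 libraries of the other groups did. It therefore had to differ there, and no ratio or separation that involves SpdefKO_GC is read as a test. Muc20 is left out of the counts of members that follow. Its exons shared with Muc4 add to this uncertainty, since Muc4 was the far more abundant of the pair.

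Between the fractions most genes differed, 61.2% of the 12915 tested in wild type (31% higher and 30.1% lower in GC) and 56.4% in the libraries labelled SpdefKO (28% higher and 28.4% lower). Against that background, Muc1, Muc4 and Muc13 all passed the test in both genotypes, the first pair higher in GC and the last lower. Of all genes tested, 98.4% had a lower log2 difference between WT_GC and WT_EC than Muc1, 94.9% a lower one than Muc4 and 21.0% a lower one than Muc13. In these bulk libraries, more cells that express a gene and more RNA of it per cell cannot be told apart.

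Between the goblet cells of the genotypes, 21.4% of tested genes passed the test, 10.4% higher and 11% lower in SpdefKO_GC. Muc1 fell, Muc4 rose, and Muc13 did not pass. Muc1 went from 19.3 ± 4.35 CPM (SD, n = 4) in WT_GC to 3.17 ± 0.758 CPM in the libraries labelled SpdefKO_GC, and the highest of the latter was below the lowest of the former. The log2 difference was -2.59 ± 0.18 (edgeR quasi-likelihood test, adjusted p = 9.02e-09), a 6.02-fold lower level. Only 27 of the 12915 tested genes had a lower log2 difference. Muc4 went the other way, from 184 ± 25.7 CPM to 573 ± 161 CPM. Its lowest SpdefKO_GC library lay well above its highest WT_GC library, and the log2 difference was 1.64 ± 0.20 (adjusted p = 2.85e-05), 3.12-fold, higher than that of 98.9% of tested genes.

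Muc13 averaged 1529 ± 145 CPM in WT_GC and 1553 ± 75.9 CPM in SpdefKO_GC, with overlapping ranges. The log2 difference was 0.02 ± 0.10 (edgeR quasi-likelihood test, adjusted p = 0.902), and 2 standard errors to either side span -0.18 to 0.23, which bounds the size of a genotype difference that these libraries leave possible. By summed counts Muc20 was 2.07-fold higher in SpdefKO_GC than in WT_GC (60 against 29 counts). The filter let Muc20 in through SpdefKO_GC alone, so neither this ratio nor its fitted difference is read as a test.

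In the EC fraction, 12.6% of tested genes differed between genotypes (6.09% higher, 6.54% lower), and Muc1, Muc4 and Muc13 did not pass. The number of called genes, 1631, was 940 without SpdefKO_EC 4, 1006 without WT_EC 17 and 1075 with only the groups compared. Muc1 was 1.85 ± 0.143 CPM in WT_EC and 1.28 ± 0.224 CPM in SpdefKO_EC, and the libraries of these groups did not overlap. The log2 difference of -0.53 ± 0.25 was not called (edgeR quasi-likelihood test, adjusted p = 0.169). With each library left out it ranged from -0.65 to -0.43, so a lower level of Muc1 in SpdefKO_EC is left possible. Muc4 was at 62.3 ± 12.9 and 59.9 ± 11.6 CPM (-0.05 ± 0.20, 2 standard errors spanning -0.45 to 0.35). Muc13 was at 2270.0 ± 107 and 2311 ± 413 CPM (0.03 ± 0.10, spanning -0.18 to 0.23). Muc20, at 3 counts in each EC group, carried too few counts to compare.

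**Figure D2:**
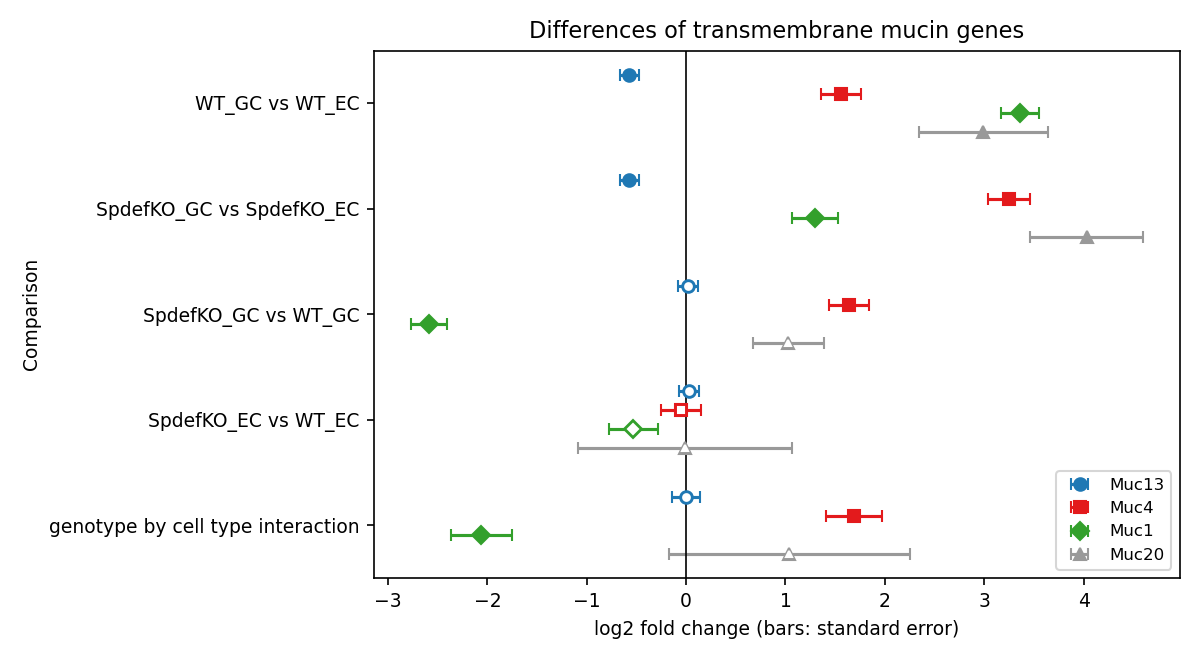
Log2 fold change (horizontal axis) with its standard error (bars) of the 4 member genes in each comparison (vertical axis); filled symbols passed adjusted p under 0.05 and open symbols did not. In SpdefKO_GC vs WT_GC, Muc1 lies at -2.59 and Muc4 at 1.64, on opposite sides of 0, and Muc13 lies at 0.02. Muc20 passed the filter on low counts only through SpdefKO_GC, so its symbols are not read as tests.

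The difference between these genotype effects was itself tested as an interaction, which passed for 9.53% of genes (4.88% positive, 4.65% negative). It was -2.06 ± 0.31 on the log2 scale for Muc1 (edgeR quasi-likelihood test, adjusted p = 0.000342) and 1.69 ± 0.28 for Muc4 (adjusted p = 0.00148). Both genotype differences in goblet cells were therefore larger than the one in the other epithelium, in opposite directions. For Muc13 it was 0.00 ± 0.14 (adjusted p = 0.992). The value for Muc20, 1.04 ± 1.21, is not read as a test, since the filter let Muc20 in through SpdefKO_GC alone. The calls of Muc1, Muc4 and Muc13 were the same under every alternative tried, in all 5 comparisons.

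Levels of different genes were set side by side only as CPM per kilobase of annotated exon. On that scale Muc13 led in every group, followed by Muc4, Muc1 and Muc20, and no neighbours in this order overlapped in any group. Muc13 averaged 747, 503, 761 and 511 CPM per kilobase in WT_EC, WT_GC, SpdefKO_EC and SpdefKO_GC. Muc4 averaged 5.30, 15.6, 5.10 and 48.7 CPM per kilobase in the same order, and Muc1 averaged 0.790, 8.22, 0.547 and 1.35. The distances between members differed more than their order did. Per kilobase, Muc4 was 1.90-fold above Muc1 in WT_GC, the closest approach of any pair, and 36.1-fold above it in SpdefKO_GC. Muc13 was 32.2-fold above Muc4 in WT_GC and 10.5-fold above it in SpdefKO_GC.

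As a share of the summed level per kilobase of the 4 genes, Muc4 made up 2.44–3.58% in the WT_GC libraries and 6.56–11.5% in the SpdefKO_GC libraries. The share of Muc1 was 1.34–2.09% and 0.173–0.302% in the same groups. Muc13 made up the remainder almost wholly, 94.5–96.1% in WT_GC and 88.2–93.1% in SpdefKO_GC, and over 99% in every EC library. The summed level itself was 480.4–594 CPM per kilobase in WT_GC and 534–604 in SpdefKO_GC, which overlapped.

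**Figure D3:**
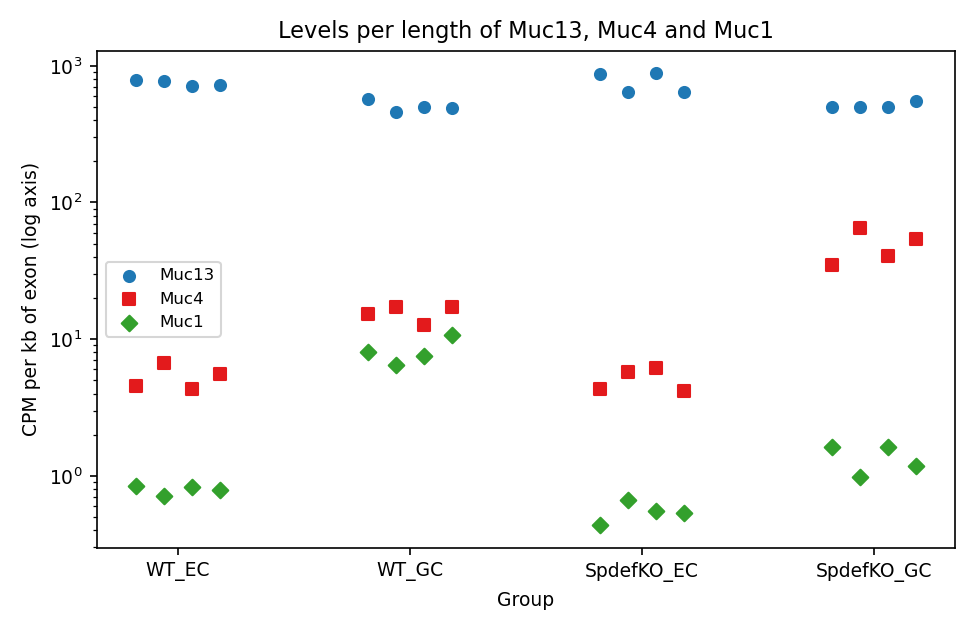
Level per kilobase of exon (vertical log axis) of Muc13, Muc4 and Muc1 in each library of the 4 groups (horizontal axis); each symbol is 1 library. Muc4 and Muc1 come closest in WT_GC (1.90-fold apart by their means) and are 36.1-fold apart in SpdefKO_GC.

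Some markers of other cell types, and interferon response genes, moved with genotype in the same libraries. Their values are given beside the Muc1 and Muc4 results. Whether such cells were more numerous or goblet cells held more of this RNA cannot be told apart here. Over all tested genes 10.4% rose and 11% fell in SpdefKO_GC against WT_GC. All 8 enteroendocrine markers rose in SpdefKO_GC, and their sum was 89.0–125 CPM in WT_GC, 212–323 CPM in SpdefKO_GC, 555–750 CPM in WT_EC and 249.7–416 CPM in SpdefKO_EC. Muc4 was at 51.0–79.3 CPM in WT_EC, where that sum was highest. Of 10 interferon response genes 7 rose in SpdefKO_GC, summing to 120–131 CPM in WT_GC and to 282, 453, 170 and 152 CPM in SpdefKO_GC libraries 3, 5, 7 and 19, of which 5 and 19 were the pair with more Muc4. In SpdefKO_EC they summed to 284–758 CPM, and Muc4 there was at 49.0–71.8 CPM.

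Absorptive markers rose as well, 6 of 9 tested (3–8 over the alternatives, lowest among others without WT_GC 9, 11 or 13 or SpdefKO_GC 3 or 19), with sums of 496–645 CPM in WT_GC and 890–1118 CPM in SpdefKO_GC, against at least 8998 CPM in every EC library. Stem and crypt base markers fell, 3 of 6 (1–3 over the alternatives, lowest without WT_GC 11 or 18 or SpdefKO_GC 3 or 19), from 1375–1736 to 865–955 CPM, while in the 6 proliferation genes 2 rose (747–1066 and 1105–1816 CPM). Tuft cell markers (6 of 7 had an entry), with 0 of 5 tested called, summed to 33.1–43.8 and 18.1–40.3 CPM. Immune markers, 2 of 5 tested higher, summed to 6.92–8.89 and 9.40–13.97 CPM, and stromal markers, 0 of 4 called, to 16.1–21.8 and 19.5–25.99 CPM. Of the goblet markers 3 rose and 2 fell, with sums of 48280–55182 and 53349–65740 CPM. No marker with an entry was at 0 in a group as a whole, and the part of these cell types in the Muc1 and Muc4 differences was not tested.

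Genes whose products act with transmembrane mucins were read from lists. Their counts stand beside the shares over all tested genes. In GC against EC these were 31% higher and 30.1% lower in wild type, and 28% and 28.4% in the libraries labelled SpdefKO. Between genotypes they were 10.4% higher and 11% lower in GC, and 6.09% and 6.54% in EC. The 16 microvillus and glycocalyx genes were all lower in goblet cells than in the other epithelium, in both genotypes, with a median log2 difference of -1.30 in wild type against 0.05 over all tested genes. The extreme was Ceacam20, an adhesion protein of microvilli, at -5.36 ± 0.16 (edgeR quasi-likelihood test, adjusted p = 7.50e-15). Muc1 and Muc4 thus differed between the fractions in the direction opposite to these genes and Muc13, at -0.57, in the same direction. Between the goblet cells of the genotypes, 7 of the 16 rose and 0 fell, with a median of 0.30. The number that rose was 2–10 over the alternatives, with the lowest without WT_GC 13 or without SpdefKO_GC 19. Pls1, which bundles actin in microvilli, changed by 0.31 ± 0.07 (adjusted p = 0.00554). In EC, 4 rose (2–5 over the alternatives) and 2 fell (1–4). Of these, Tmigd1 lost its call in 14 of 23 alternatives and Ceacam20 in 3.

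Among 16 tested receptor and signalling partners, which include the ErbB receptors, Met and the catenins, 13 were lower in WT_GC than in WT_EC and 0 higher, and 12 were lower in the libraries labelled SpdefKO. The largest difference was in Lgals3, a galectin that binds mucin sugars, at -2.26 ± 0.10. In SpdefKO_GC against WT_GC, 5 rose and 0 fell, led by Ctnnd1 (p120-catenin), at 0.39 ± 0.09 (edgeR quasi-likelihood test, adjusted p = 0.00391). The number that rose was 3–6 over the alternatives, lowest without WT_GC 13, and the Lgals3 call was lost in 7 of 23. In EC 1 gene passed, Lyn, and its call was lost in 18 of 23 alternatives. Erbb2 and Met, the known partners of Muc4 and Muc20, were singled out after their values were seen, and neither passed there. Erbb2 averaged 105 CPM in WT_GC and 114 in SpdefKO_GC, and Met 76.4 and 76.5 CPM.

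The 14 tested apical scaffold and trafficking genes were mostly lower in goblet cells, 10 lower and 2 higher in wild type and 11 lower and 2 higher in the libraries labelled SpdefKO. A pair of related PDZ scaffolds went opposite ways. Slc9a3r2 (NHERF2) was at 1.11 CPM in WT_EC and 29.8 CPM in WT_GC (log2 4.76 ± 0.19, edgeR quasi-likelihood test, adjusted p = 7.98e-14), while Slc9a3r1 (NHERF1) was at 286 and 56.5 CPM (-2.34 ± 0.10, adjusted p = 1.55e-13). In SpdefKO_GC, Slc9a3r2 fell to 8.56 CPM (-1.80 ± 0.14, adjusted p = 5.13e-08) and Slc9a3r1 rose to 74.0 CPM (0.39 ± 0.09, adjusted p = 0.00597). Over the list, 1 rose and 2 fell there, near the 10.4% higher and 11% lower over all tested genes. In EC 1 passed, Ezr, and its call was lost in 6 of 23 alternatives.

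Membrane mucins are released from the cell by proteases, of which 12 were tested. In WT_GC 7 were higher and 4 lower than in WT_EC, led by Bace2, a secretase, at 191 against 14.6 CPM (log2 3.71 ± 0.16), and St14 (matriptase) at -1.06 ± 0.08. In the libraries labelled SpdefKO 6 were higher and 3 lower. Between the goblet cells of the genotypes 1 rose and 2 fell, near the 10.4% higher and 11% lower over all tested genes. Bace2 changed by -0.56 ± 0.14 (edgeR quasi-likelihood test, adjusted p = 0.00895) and Mmp14, a membrane-bound metalloprotease, by 0.30 ± 0.07 (adjusted p = 0.00626). In EC 1 rose, Adam10, whose call was lost in 2 of 23 alternatives (only the groups compared and without WT_EC 10), and 1 fell.

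Of 29 epithelial transcription factors and cytokine receptors, 9 were higher and 11 lower in WT_GC than in WT_EC, and 10 and 9 in the libraries labelled SpdefKO. In SpdefKO_GC against WT_GC 4 rose (3–8 over the alternatives) and 4 fell (1–4, lowest without WT_GC 18). Over all tested genes 10.4% rose and 11% fell there, so these counts are near that share. Il4ra, a receptor chain for interleukin 4 and interleukin 13, rose by 0.81 ± 0.20 on the log2 scale (edgeR quasi-likelihood test, adjusted p = 0.00830). Foxa3, a forkhead factor of goblet cells, fell from 159 to 91.0 CPM (-0.81 ± 0.12, adjusted p = 0.000104). In EC 3 passed, but 0 did so without WT_EC 12, WT_EC 17 or SpdefKO_EC 4.

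Of 14 other mucin genes 8 had an entry and 3 were tested, Muc2, Muc5ac and Cd164. Muc2, the gel-forming mucin of the colon on which the reporter and thus the sort are built, averaged 12079 ± 681 CPM (SD) in WT_GC libraries and 12542 ± 1689 CPM in SpdefKO_GC libraries (log2 0.05 ± 0.16, edgeR quasi-likelihood test, adjusted p = 0.840). Cd164, a sialomucin of endosomes and the cell surface, went from 514 CPM in WT_GC to 426 CPM in SpdefKO_GC (-0.27 ± 0.06, adjusted p = 0.00390). Muc5ac, a gastric gel-forming mucin, held 47 counts in all of WT_GC and 48 in all of SpdefKO_GC, and Muc5b, Muc6 and Muc19 held 15, 37 and 5 counts in WT_GC and 25, 23 and 12 in SpdefKO_GC. Neither Muc2 nor Cd164 thus differed between the goblet cells of the genotypes by as much as Muc1 or Muc4.

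Genes near Muc1 were read next. Within 200 kilobases of its start, 24 other genes were tested, and in SpdefKO_GC against WT_GC 5 fell and 0 rose. Over all tested genes 21.4% passed there (10.4% higher, 11% lower). Whether the neighbours differ from other genes was not tested. Trim46, a microtubule-organizing protein whose gene converges on Muc1 and ends 795 bases from it, went from 32.5 ± 0.980 CPM in WT_GC to 8.70 ± 0.769 CPM in SpdefKO_GC (log2 -1.90 ± 0.13, edgeR quasi-likelihood test, adjusted p = 8.76e-09). Trim46 also passed in EC, at -0.95 ± 0.14 (edgeR quasi-likelihood test, adjusted p = 0.000362), where Muc1 was lower as well but was not called. Slc50a1, a sugar transporter with its start 41.5 kilobases away, fell from 111 to 74.3 CPM (-0.58 ± 0.08, adjusted p = 2.67e-05). The other 3 had log2 differences of -0.57 to -0.25, and their calls were lost in 2 of 23 alternatives for Efna4 (without SpdefKO_GC 7 or 19), 11 for Krtcap2 and 6 for Pklr. Trim46 overlaps Krtcap2 on the opposite strand by 344 bases.

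Within 200 kilobases of the start of Muc4, 8 other genes entered the fit. Muc20 and Gm10818 did so through the 4 SpdefKO_GC libraries alone and are left out of the count, and of the other 6, 2 rose and 0 fell in SpdefKO_GC. Tfrc, the transferrin receptor, went from 349 ± 25.6 CPM in WT_GC to 579.8 ± 115 CPM in SpdefKO_GC (log2 0.73 ± 0.14, edgeR quasi-likelihood test, adjusted p = 0.000927), and unlike Muc4 it also rose in EC, by 1.42 ± 0.14 (adjusted p = 5.97e-06). Gm10818, which lies within Tnk2 on the opposite strand, held 31 counts in all of WT_GC, 100 in all of SpdefKO_GC and 0 in both EC groups. Tnk2 itself moved by 0.27, a call that 8 of 23 alternatives lost. Of 3 tested genes near Muc13, 1 fell, Itgb5, an integrin subunit, by 0.44 on the log2 scale (adjusted p = 0.00394). The counts near Muc4 and Muc13 stand beside 10.4% higher and 11% lower over all tested genes, and come from few genes.

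**Figure D4:**
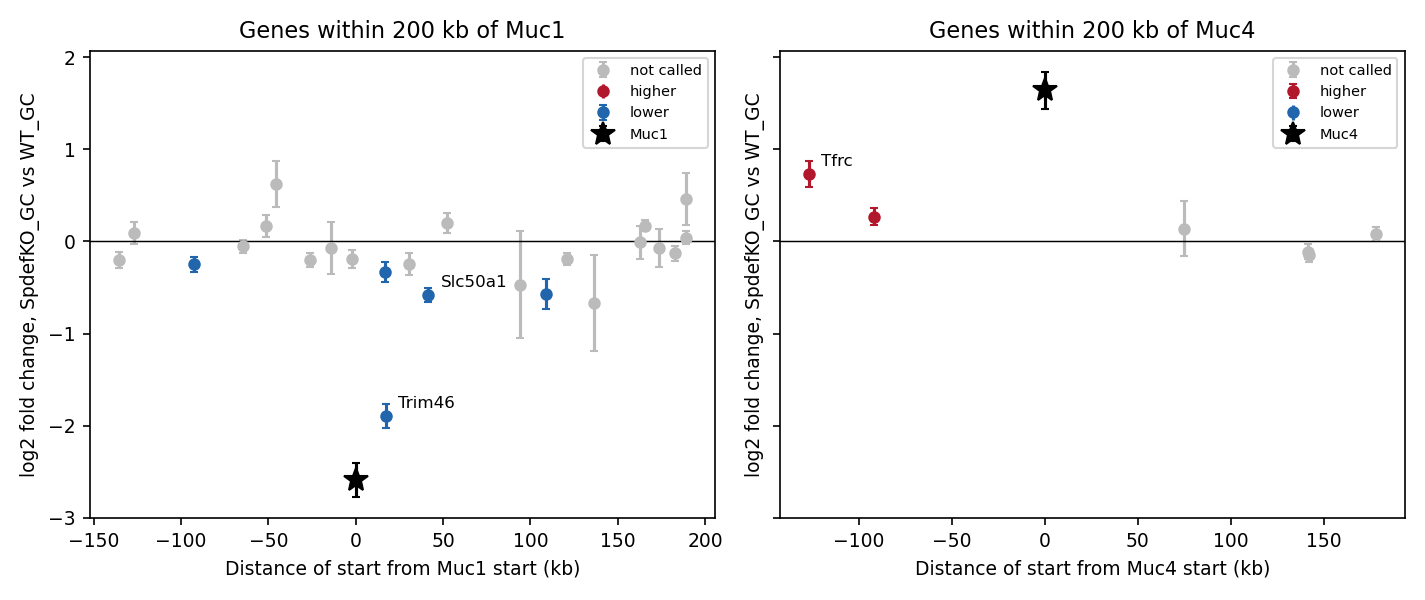
Log2 fold change in SpdefKO_GC vs WT_GC (vertical axis, bars are standard errors) of tested genes against the distance of their start from that of Muc1 or Muc4 in kilobases (horizontal axis); the star is the mucin gene. Near Muc1, Trim46 lies at -1.90 and the other genes lie closer to 0, and near Muc4, Tfrc lies at 0.73. Muc20 and Gm10818, which passed the filter only through SpdefKO_GC, are not drawn.

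Genes with the pattern most like each member were found by Pearson correlation of log2(CPM + 1) over the 16 libraries, among 10411 genes, as a description. These libraries fall into 4 groups that share cell type and genotype, so the coefficient reflects mostly the group means. For Muc1 they were Guk1 (r = 0.990), which makes GDP from GMP, Dlk1 (0.981), a Notch-like membrane protein, and Creb3l4 (0.978), a membrane-anchored transcription factor. Their means in WT_GC and SpdefKO_GC were 98.6 and 36.5 CPM, 19.1 and 0.927 CPM, and 194 and 7.97 CPM, so Dlk1 and Creb3l4 fell further than Muc1 and Guk1 less far.

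Muc4 was most like Arhgef38 (r = 0.988), Wnk4 (0.979), a kinase of ion transport, and Kif13a (0.977), a kinesin motor. Arhgef38 averaged 23.1, 44.9, 20.6 and 79.5 CPM in WT_EC, WT_GC, SpdefKO_EC and SpdefKO_GC, a smaller range than that of Muc4. Muc13 was most like Vps37b (0.972), Rbm47 (0.961) and Eps8l3 (0.961). The most similar to Muc20 were Ubqln2 (0.977), Sv2c (0.977) and Myc (0.975), with the low counts of Muc20 behind these values.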

How the data were processed

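Total RNA of 16 sorted libraries was read from the deposited counts, which the authors gave as whole reads per gene symbol. Tools in the submitters' processing notes are STAR 2.4.0f, HTSeq 0.6.1p1, FastQC 0.11.2 and DESeq2 1.14, with the build mm10 and no roles. Annotation and strand setting: not given in the sources used here. The labels' protocols give goblet cell RNA another column type than the rest, so column and cell type cannot be told apart. Entries naming no gene (3, with 47.1–54.7% of counts) were left out. Within groups, no libraries were near-duplicates (chi-square over degrees of freedom 4.33–32.5).

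All groups entered 1 edgeR 4.0.16 quasi-likelihood fit (limma 3.58.1, R 4.3.3; robust, TMM factors 0.944–1.06, filter on low counts by group), with Benjamini-Hochberg adjustment over 12915 genes and a threshold of 0.05. Standard errors are the log2 difference over the root of F. The fit was tested on simulated data for SpdefKO_GC against WT_GC (12951 genes) and found 90.8% of 98 2-fold and 100% of 99 4-fold changes, with 6% false calls. Alternatives were RLE, upper-quartile and no scaling, no filter, DESeq2 1.42.0, limma-voom, only the groups compared, and each library left out. Exon lengths come from GENCODE, promoters from RefSeq (4 of 4 genes matched).

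The members and gene lists were chosen with earlier results of these data known. Named beside the members were Spdef, the called gene with the largest rise and fall of each list among those with at least 5 CPM, genes within 200 kilobases of a member, the 3 genes most like each member and the tested mucin genes.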

Additional observations from a re-analysis of the deposited data

Results flagged for a closer look

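Far libraries were looked for in 24 sets of 4 libraries (Muc1, Muc4, Muc13, Muc20, Spdef and Muc2 in each group), where chance alone marks about 1 set in 20. In SpdefKO_GC, library 19 stood apart for Muc13 at 1667 CPM, above the other 3 at 1510–1518 CPM, and library 5 for Muc20 at 1.39 CPM, above the others at 0.853–0.918 CPM.

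The genotype difference differed between goblet cells and the other epithelium, by the interaction test, for 5 of 8 genes looked at. Over all tested genes it did so for 9.53%. The 8 were Muc1, Muc4, Muc13, Muc20, Spdef, Muc2, Trim46 and Slc50a1. Trim46 and Slc50a1 are Muc1 neighbours that fell in SpdefKO_GC, and Muc20 entered the fit through SpdefKO_GC alone. The 5 of 8 is therefore no rate to set against that share. On the log2 scale the goblet cell difference exceeded that in EC by 1.69 for Muc4 and by 0.84 for Muc2, and the value was -2.06 for Muc1, -0.95 for Trim46 and -0.59 for Slc50a1. The Muc2 value lost its call in 7 of 22 alternatives, among them without WT_EC 17, WT_GC 9 or 13, SpdefKO_EC 4 or 8, or SpdefKO_GC 5 (adjusted p up to 0.0683 in edgeR), and with no filter on low counts (0.0811).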

How the results depend on the processing

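The calls of Muc1, Muc4 and Muc13 were the same in 23 of 23 alternatives for each comparison of 2 groups and in 22 of 22 for the interaction. Muc20 entered the fit through SpdefKO_GC alone, so its values against WT_GC are no evidence of a difference. They were 1.03 (adjusted p = 0.0503) and 1.04 with RLE factors (adjusted p = 0.0476), with no scaling (0.0483) and with only the groups compared (0.0277), all in edgeR. With 1 library left out it ranged from 0.86 to 1.15 (adjusted p 0.0415–0.138), under the threshold without WT_EC 10, 12 or 17 or SpdefKO_EC 6, 8 or 20. The number of genes called in SpdefKO_EC against WT_EC was 1631, 1075 with only the groups compared, and 940–2253 with 1 library left out (940 without SpdefKO_EC 4, 1006 without WT_EC 17). Upper-quartile factors and no scaling moved the median log2 difference of all genes from 0.03 to 0.15 and 0.16 in SpdefKO_GC against SpdefKO_EC. The share of calls that were higher became 60.9% and 61.9% there, 33.1% and 32.7% in SpdefKO_EC against WT_EC, and 59.9% and 66.1% for the interaction. No paired analysis was run, since no library number occurs in more than 1 group. Goblet and other fractions of a genotype carry adjacent numbers, but no label says that these mark a mouse, and they were not used as pairs. If they do mark a mouse, the fit treated paired libraries as separate, and what a paired fit would give was not tested. Muc20 and the other mucins with few counts are limited by depth.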
